A study of Mus musculus with 16 samples.

Results

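Multipotent progenitors of the MPP3 type, sorted from mouse bone marrow as cells without Fcgr, were compared between Jak2V617F and wild-type animals. The comparison takes 8 of the 16 libraries of the study, chosen by their titles: 4 libraries labelled Jak2V617F, called mutant here, and 4 labelled WT, called control. The other 8 are haematopoietic stem cells (HSC) of both genotypes, with 4 libraries each, and serve to estimate the spread and to ask where the mutant effect differed between cell types. Each library was made from 7000 to 10000 sorted cells, and the labels give the replicate number as the batch, so that mutant and control libraries of the same number share one. Strain, age, sex, the promoter or Cre driver, the number of mutant copies and any pooling of animals were looked for in the labels and not found in what was used here. Nothing in them says that the 4 replicates of a group are different animals, and p-values then describe only how these samples scatter, which may be technical.

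MPP3 sit below the stem cell and give rise mainly to granulocytes and monocytes, with part of their output going to red cells and platelets. They carry Kit and Cd48 on the surface and little Slamf1 (CD150) or Flt3. JAK2 is the tyrosine kinase bound to the receptors for erythropoietin (EPOR) and GM-CSF, among others. On ligand binding it phosphorylates STAT5 and STAT3, which enter the nucleus and switch on target genes, among them inhibitors such as CISH and the SOCS proteins that shut the receptor down again. The V617F substitution releases JAK2 from the restraint of its own pseudokinase domain and is the common driver of polycythaemia vera and related myeloproliferative neoplasms. The title of the series sets the unfolded protein response, which senses misfolded protein in the endoplasmic reticulum and adjusts folding capacity, beside an oncogenic mutation.

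Levels are CPM, counts per 1e6 on library sizes scaled by TMM, and are given for replicates 1 to 4 in that order. Of the markers of the sorted population, Kit and Mpo were present in both groups. Kit ranged over 812 to 1173 CPM in control and 742 to 1014 CPM in mutant libraries. Mpo, the myeloperoxidase of early myeloid cells, ranged over 1814 to 3746 CPM in control and 1594 to 2845 CPM in mutant libraries. Cd48 stood at 194, 216, 163 and 168 CPM in controls and 334, 268, 242 and 259.8 CPM in mutants. The groups did not overlap for Cd48, but its log2 fold change of 0.57 ± 0.19 did not pass (edgeR adjusted p = 0.184). Slamf1 reached no more than 3.54 CPM in any of the 8 libraries and Fcgr3 no more than 9.29 CPM. Fcgr2b stood above Fcgr3, at 12.1, 39.2, 8.07 and 15.5 CPM in controls and 25.6, 20.6, 29.8 and 16.1 CPM in mutants. Flt3, low at the surface of MPP3, ran from 153 to 232 CPM in controls and from 124 to 190.3 CPM in mutants. Jak2 transcripts stood at 18.5, 27.9, 21.4 and 30.8 CPM in controls and 21.7, 23.2, 32.5 and 20.3 CPM in mutants. The ranges overlap and the log2 fold change was -0.02 ± 0.23. Counts per gene carry no information on the substitution, and so the genotype labels were not checked.

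Library totals overlapped, at 33.1 to 40.3 in controls and 36.1 to 41.2 in mutants (1e6 estimated counts; exact permutation test, two-sided p = 0.429). Mutant libraries detected fewer genes, 14439 to 14766 against 14852 to 15552 in controls (exact permutation test, two-sided p = 0.0286, the smallest that 4 against 4 can give). Mitochondrial transcripts made up 1.23 to 1.41% of counts in mutants and 1.28 to 1.95% in controls (exact permutation test, two-sided p = 0.2). The 2 libraries that stood apart were mutant replicate 3 and control replicate 1. On the first principal component of the 8 libraries (21.8% of variance) the other mutants scored 63.3, 36.7 and 64.5 and the controls -29.5 to -55.0, and mutant replicate 3 lay between them at -6.16. In control replicate 1 the summed level of immediate early genes, which cells switch on within minutes of handling, was 7343 CPM, against 871 to 1365 CPM in the other controls.

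Jak2V617F changed few genes past the threshold in MPP3. Of 14179 genes tested, 9 (0.0635%) passed edgeR's quasi-likelihood test at an adjusted p under 0.05, 2 higher (0.0141%) and 7 lower (0.0494%) in the mutant, and 1960 had an unadjusted p under 0.05. Among those that fell was Aplp2, a membrane protein of the amyloid precursor family (GRCm38, as all coordinates here, chromosome 9, 31149557 to 31211815). Control libraries held 149, 167, 151 and 182 CPM and mutant libraries 84.8, 86.3, 121 and 97.8 CPM. The highest mutant lay below the lowest control, and Aplp2 fell to 0.601 times the control mean (log2 fold change -0.74 ± 0.13, edgeR's adjusted p = 0.0469). In bulk RNA, fewer cells of a type and less RNA per cell cannot be told apart, here and in every result on cell type genes that follows.

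Among the other genes that fell, Ctse, the aspartic protease cathepsin E (chromosome 1, 131638306 to 131675505), stood at 95.4, 101, 68.3 and 116 CPM in controls and 23.9, 26.4, 54 and 26.8 CPM in mutants. In Aplp2 and Ctse mutant replicate 3 was the highest mutant but still below every control. The class I myosin gene Myo1d (chromosome 11, 80482126 to 80780025) went from 7.38, 18.7, 8.52 and 13 CPM in controls to 4.34, 3.77, 2.66 and 3.24 CPM in mutants. Fbxo31, the substrate-binding part of a ubiquitin ligase that acts on cyclin D1 (chromosome 8, 121549440 to 121578806), went from 17, 13.2, 9.21 and 13.2 CPM in controls to 5.37, 3.85, 5.65 and 5.26 CPM in mutants. The mutant means were 0.345 (Ctse), 0.295 (Myo1d) and 0.383 (Fbxo31) times the control means.

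Another 4 of the called genes were rare transcripts. Acsl6, a long-chain acyl-CoA synthetase (chromosome 11, 54303798 to 54364756), held 1.33, 1.86, 4.7 and 2.97 CPM in controls and no count in any mutant library. Gbp4, a guanylate-binding protein gene induced by interferon (chromosome 5, 105115767 to 105139586), held 1.79, 1.17, 1.67 and 2.94 CPM in controls and no count in the mutants. Against a floor of 3 counts per library they were at least 33.6-fold and at least 23.4-fold lower in the mutant. Spats2 (chromosome 15, 99125916 to 99213215) was the mirror image, with no count in the controls and 0.776, 1.09, 0.128 and 1.25 CPM in the mutants, at least 9.83-fold higher by that floor, and 1 of the 4 mutant libraries was near it. Gm4951, a predicted interferon-inducible GTPase (chromosome 18, 60212080 to 60247820), rose from 2.92, 3.96, 3.79 and 5.1 CPM in controls to 7.04, 11.5, 15.8 and 10.6 CPM in mutants. Gbp4 and Gm4951 have close relatives in the genome, and how the authors' quantification shared reads among such copies was not examined. The floors allow for counting error only, because amplified copies were read without molecular identifiers.

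**Figure D1:**
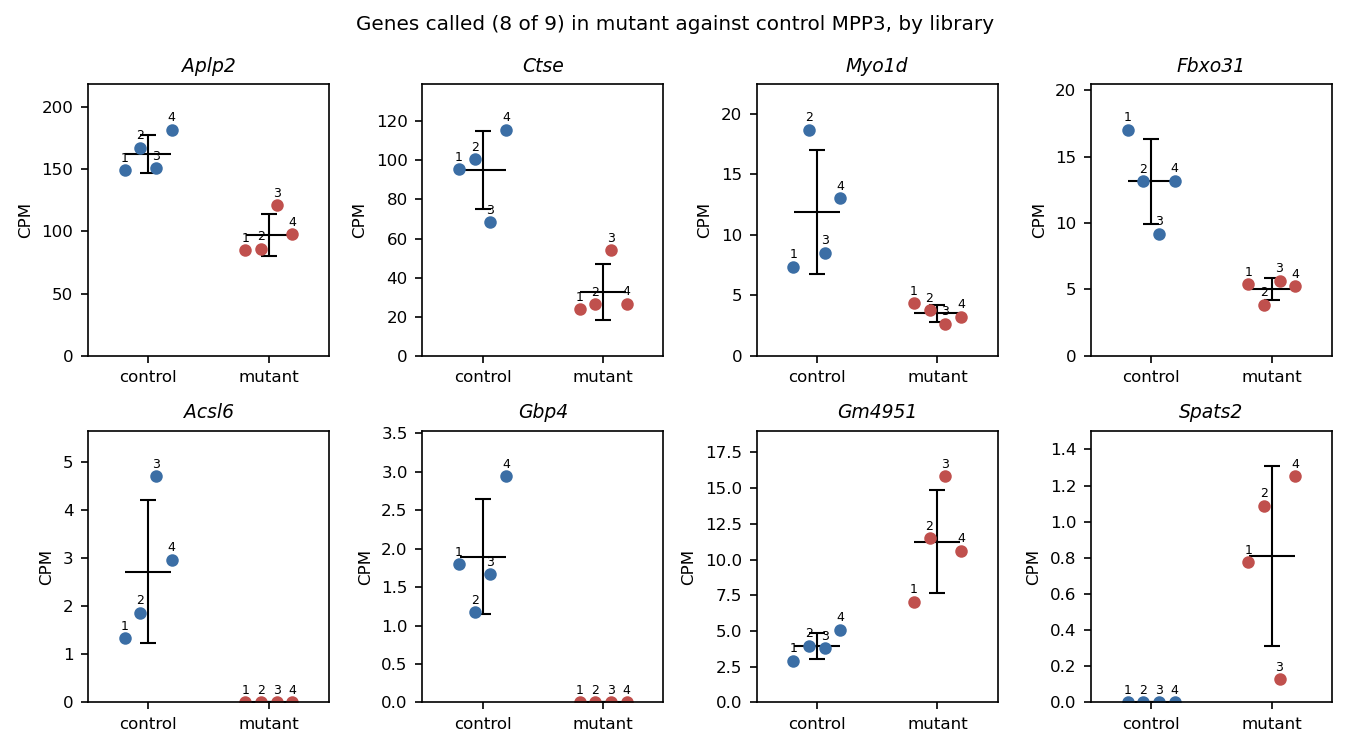
CPM (y axis, linear from 0) of 8 of the 9 genes that passed, in control (blue) and mutant (red) MPP3, with 1 point per library numbered by replicate, and a bar and whiskers for mean ± SD of 4 libraries. The groups do not overlap in any panel, and mutant replicate 3 is the mutant nearest the controls for Aplp2, Ctse, Fbxo31 and Spats2.

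Apart from Gbp4 (edgeR adjusted p = 0.000135), the calls shared an adjusted p of 0.0469. Gbp4 alone of the 9 kept its call without control MPP3 replicate 2 or 4, mutant MPP3 replicate 2 or 4, control HSC replicate 2, 3 or 4 or mutant HSC replicate 1, 2 or 4; 2 kept it without control MPP3 or control HSC replicate 1, 4 without control MPP3 replicate 3 and 5 without mutant MPP3 replicate 1. The fit on the 8 MPP3 libraries alone called no gene (edgeR adjusted p = 0.195 for Aplp2, 1543 genes at an unadjusted p under 0.05), limma-voom called 6 genes, 3 of the 9 among them and Gbp4 not (adjusted p = 0.0620), and DESeq2 called 388 genes, all 9 among them.

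Taking the batch into account raised the number of calls. With the replicate number as a block 82 genes passed (0.578%), 25 higher (0.176%) and 57 lower (0.402%), and the 9 were all among them. Without mutant replicate 3, and with no block, 209 of 14515 genes passed (1.44%), 108 higher (0.744%) and 101 lower (0.696%), again with all 9. The 2 sets shared 49 genes, which is 49 of 82 and 49 of 209. With the block and without control replicate 1, a fit added after seeing the data, 4 of the 82 passed and no other gene: Gbp4, Cbfa2t3, Jchain and Fkbp14, all lower. With the block and without mutant replicate 3, added likewise, 253 genes passed. Every other call given below as passing with the block was thus lost when control replicate 1 was left out. Genes named from here on as passing with the block did not pass in the fit without it, unless they are among the 9.

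With the block, the smallest adjusted p outside the 9 went to Cbfa2t3 (edgeR adjusted p = 0.00105), the corepressor ETO2 that works with GATA1 and TAL1 in erythroid and megakaryocyte cells. It stood at 148, 175, 164 and 117 CPM in controls and 63.7, 89.8, 97.9 and 60.2 CPM in mutants, and the groups do not overlap. Ldhb, a lactate dehydrogenase subunit, went from 118, 87.9, 96.4 and 129 CPM in controls to 52.7, 50.3, 69.5 and 71.4 CPM in mutants. The secreted protein gene C1qtnf12 went from 80.6, 118, 97.7 and 120.2 CPM in controls to 26.8, 38.6, 66.4 and 51.3 CPM in mutants and Gcnt2, the enzyme that branches I blood group sugars, from 285, 271, 342 and 381 CPM in controls to 205, 188, 239 and 242 CPM in mutants. All 3 were lower in the mutant of every batch.

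Higher in the mutant with the block were Crk, an adaptor that links tyrosine kinases to the cytoskeleton, Cd9, a tetraspanin, Erh, a small nuclear RNA-processing protein, and Hnrnpa1, a splicing factor. Crk was tight within the groups, at 16.5, 18.7, 14.7 and 15.7 CPM in controls and 30.8, 28.3, 29.1 and 29.7 CPM in mutants, with a log2 fold change of 0.85 ± 0.14 (adjusted p by edgeR = 0.0304 with the block, 0.0518 without). Erh stood at 639.7, 615, 547 and 552 CPM in controls and 960.5, 794, 670.4 and 855 CPM in mutants. Mlkl, the pore-forming executor of necroptosis, stood at 41.9, 44.6, 49.6 and 60.9 CPM in controls and 110.2, 62.5, 70.6 and 96.1 CPM in mutants (edgeR adjusted p = 0.0328 with the block). Hmga1, an architectural chromatin protein, stood at 376, 320.3, 377 and 355 CPM in controls and 494, 391, 515 and 505 CPM in mutants, and mutant replicate 2 was the lowest mutant. Of the 82 genes, 81 went the same way in all 4 batches, a pattern that calling them on these libraries with the batch as a block favours. Jak2 lies on chromosome 19, as do 3 of the 82 (3.66%) and 494 of all genes tested (3.48%).

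Outside these calls, the naming rule also took genes with an unadjusted p under 0.01, a mean of 5 CPM or more and groups that do not overlap. Such a rule met 211 genes higher and 160 lower, and over all genes tested 517 (3.65%) were higher without overlap and 493 (3.48%) lower. Among the most negative log2 fold changes were those of Ces2g, a carboxylesterase (50.6, 68.9, 58.8 and 99.1 CPM in controls, 4.4, 7.23, 34.3 and 4.14 CPM in mutants), and Abcb4, a phospholipid transporter (3.3, 8.71, 9.15 and 14.1 CPM in controls and 2.16, 1.03, 1.23 and 2.3 CPM in mutants). Both passed with the block (edgeR adjusted p = 0.0471 and 0.0471). So did Epb41l5, a membrane-cytoskeleton linker, and Trib2, a pseudokinase that directs the ubiquitin ligase COP1 to C/EBPalpha, with 13, 11.6, 10.7 and 12.4 CPM in controls and 4.91, 0.642, 1.51 and 3.63 CPM in mutants (edgeR adjusted p = 0.0264). Hmox1, the haem-degrading oxygenase, had 23.1, 7.15, 9.9 and 9.44 CPM in controls and 2.1, 0.838, 5.22 and 5.88 CPM in mutants and did not pass in either fit. Among the largest positive values were Aif1l (4.66, 4.35, 3.77 and 1.05 CPM in controls and 11.1, 9.46, 4.81 and 15.3 CPM in mutants), Tnfaip8l1 and the matrix gene Emilin2 (log2 fold changes of 1.21 ± 0.33 and 0.99 ± 0.25), none of which passed. Lgals1, which encodes galectin-1, stood at 40.2, 82.7, 62 and 63.1 CPM in controls and 126, 101, 108 and 148 CPM in mutants and did not pass (edgeR adjusted p = 0.0509 with the block). Pdss1, which makes the side chain of coenzyme Q, passed with the block at 0.0482.

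Transcripts that STAT factors induce were not higher as a group in the mutant. Of 28 tested genes on the list of JAK-STAT feedback and targets, 2 had an unadjusted p under 0.05 on the higher side and 4 on the lower side, where 6.31% and 7.52% of all genes did. Their median log2 fold change was -0.19, beside -0.02 over all genes, and it was -0.01 without control replicate 1. Cish, the STAT5-induced inhibitor of receptor signalling, stood at 34.9, 36.3, 23.6 and 24.7 CPM in controls and 12.6, 14.1, 13.8 and 8.66 CPM in mutants. Every mutant library lay below every control, the log2 fold change was -1.28 ± 0.29 with adjusted p = 0.0886 by edgeR, and with the block Cish passed at 0.0276. Socs2, another STAT5 target, was rare in both groups (4.86, 1.83, 4.32 and 1.72 CPM in controls and 4.77, 2.57, 5.32 and 1.1 CPM in mutants). Socs3, which STAT3 induces, had 156, 14.8, 13.8 and 24 CPM in controls and 52.5, 19.1, 11.6 and 18.4 CPM in mutants. The high control is replicate 1, and the log2 fold change of -1.04 ± 0.90 became 0.55 without it. Pim1, a kinase gene below STAT5, ranged over 274 to 662 CPM in controls and 284 to 384 CPM in mutants. Spry2, a brake on growth factor signalling, had a log2 fold change of -0.55 ± 0.20 and did not pass. On the higher side were Csf2rb2, a beta chain that takes part in IL-3 receptors (6.4, 3.15, 6.79 and 13.5 CPM in controls, 25.7, 17.7, 12.1 and 17.3 CPM in mutants), and Ccnd1, which encodes cyclin D1 (25.7, 25.8, 26.7 and 31.5 CPM in controls and 40.4, 38.6, 37.4 and 48.1 CPM in mutants). The groups overlap for Csf2rb2 and not for Ccnd1, and neither passed in either fit (edgeR adjusted p = 0.134 and 0.124).

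STAT dimers bind a palindrome, TTCNNNGAA, and the promoters of the list were read for it to show what these genes carry. The windows run from 250 bases before to 50 after each start (RefSeq, GRCm38.p6), and since the motif is its own reverse complement a search of either strand finds the same sites. Of 31 genes on the list 22 had a window and 4 held the motif. Of 32851 promoter windows 8.30% held it and 0.457% held more than 1. A gene can have more than 1 window, as Bcl6 did, so the count of genes cannot be set against this share of windows. The Cish window held 2, the first at the start site itself. The stretches below show the sites of Cish, Csf2rb2 and Socs3 in capitals, 5′ to 3′ on the strand of the gene, because the values of these members lay on different sides of 0 or near it. Cish is from chr9:107296654-107296683 (plus strand), Csf2rb2 from chr15:78305712-78305741 (minus strand) and Socs3 from chr11:117969481-117969540 (minus strand).
Cish: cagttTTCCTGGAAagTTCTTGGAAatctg
Csf2rb2: cacaaTTCTGAGAAgcaagcaaagctgctt
Socs3: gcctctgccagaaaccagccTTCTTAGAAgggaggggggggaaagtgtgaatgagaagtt
The other gene with a match was Bcl6, with 3 sites in 1 of its windows and 1 site in another. A match describes letters in this window and is not a measured binding site, and the table held no window for Gbp4, Ctse or Myo1d.

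Few kinases, STAT factors and receptors coupled to JAK2 had a small p. Of 28 tested, 1 had an unadjusted p under 0.05 on the lower side and none on the higher side, where 7.52% and 6.31% of all genes did. Of the 28, 23 had a negative log2 fold change and 5 a positive one, with a median of -0.15. Epor, the erythropoietin receptor, was listed at 0 in mutant replicate 1 and stood at 6.8, 13, 11.9 and 11.1 CPM in controls and 0, 2.09, 10.1 and 4.73 CPM in mutants, and it did not pass (edgeR adjusted p = 0.424). Csf2ra, the GM-CSF receptor alpha chain, and Ptpn1, a phosphatase that acts on JAK2, had log2 fold changes of -0.37 ± 0.21 and -0.24 ± 0.12 and overlapping groups.

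Genes of the red cell lineage were lower in mutant replicates 1, 2 and 4 and closer to the controls in replicate 3. Of 34 erythroid genes tested, 30 had a negative log2 fold change, and 15 had an unadjusted p under 0.05 on the lower side and none on the higher side, where 7.52% and 6.31% of all genes did. None passed in the fit without the block, 3 passed with it (Klf1, Blvrb and Nfia, all lower), and 9 passed without mutant replicate 3, all lower. Of all genes, 0.402% passed as lower with the block and 0.696% without mutant replicate 3. In 13 of 34 every mutant lay below every control, as in 3.48% of all genes. The median log2 fold change was -1.36 over all batches, and it was -2.40, -2.60, -0.31 and -1.41 in batches 1 to 4.

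Klf1, the master regulator of red cell genes, stood at 29.3, 48.8, 39.2 and 69 CPM in controls and 1.24, 2.57, 27.3 and 8.07 CPM in mutants. Mutant replicate 3 was close to the lowest control and the other mutants far below it, and Klf1 passed with the block (edgeR adjusted p = 0.0471, 0.169 without). Gata1, the transcription factor of erythroid and megakaryocyte cells, stood at 45.6, 30.5, 31.9 and 50.2 CPM in controls and 7.19, 22.9, 14.9 and 24.4 CPM in mutants. No mutant reached the controls, replicate 3 included, but Gata1 did not pass in either fit (0.119 and 0.0778 by edgeR). Blvrb, biliverdin reductase B of red cells, stood at 78.8, 97.3, 78.8 and 100.2 CPM in controls and 17.8, 23.6, 61.2 and 33.3 CPM in mutants, a log2 fold change of -1.50 ± 0.24 with the block (edgeR adjusted p = 0.0264). Nfia, a factor that favours erythroid over granulocyte fate, stood at 69.8, 87.1, 88.8 and 94.3 CPM in controls and 39.4, 50.5, 69.2 and 45.3 CPM in mutants. The carbonic anhydrase gene Car2, which held the most counts of the list, stood at 2124, 2583, 2827 and 2805 CPM in controls and 1298, 1797, 2357 and 1561 CPM in mutants. Mutant replicate 3 overlapped the controls for Car2 and the other mutants did not.

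Some genes of the red cell membrane, named after their values were seen, had a wide gap between mutant replicate 3 and the other mutants, and replicate 3 was the highest mutant in 20 of the 34 erythroid genes. Rhd, of the Rhesus antigen, had 34.2, 68.5, 37.1 and 66 CPM in controls and 0.0287, 0.503, 21.7 and 2.15 CPM in mutants. Ermap, an erythroblast membrane protein, had 40.5, 72.9, 50.9 and 87.6 CPM in controls and 0.948, 1.28, 34 and 5.77 CPM in mutants, and the cytoskeletal gene Add2 had 14, 17.7, 15.1 and 22.2 CPM in controls, 7.75 CPM in mutant replicate 3 and no count in the other mutants. The water channel gene Aqp1 had 33.2, 27.7, 38.3 and 45.4 CPM in controls and 0.805, 2.26, 21.6 and 8.84 CPM in mutants. These 4 passed without mutant replicate 3 (edgeR adjusted p = 0.0199, 0.0218, 0.00555 and 0.0166) and in neither fit with it. The adult globin genes had another order. Hba-a1, an alpha globin, had 46.1, 76.3, 26.8 and 79.6 CPM in controls and 15.6, 12.6, 18.8 and 59.3 CPM in mutants, and Hbb-bs, a beta globin, 42.4, 71.2, 19.9 and 51.4 CPM in controls and 18.2, 17.5, 22.1 and 52.9 CPM in mutants. Replicate 4 was the highest mutant in both, the groups overlap, and neither passed in either fit. Globin genes come in near-identical copies, and how reads were shared among them was not examined. The list sum, most of it Car2, was 3627, 4633, 4449.8 and 4764 CPM in controls and 1999.6, 2730.4, 3617 and 2596 CPM in mutants. The highest mutant sum, that of replicate 3, lay just below the lowest control. The part of erythroid cells within the sort in these values was not tested.

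**Figure D2:**
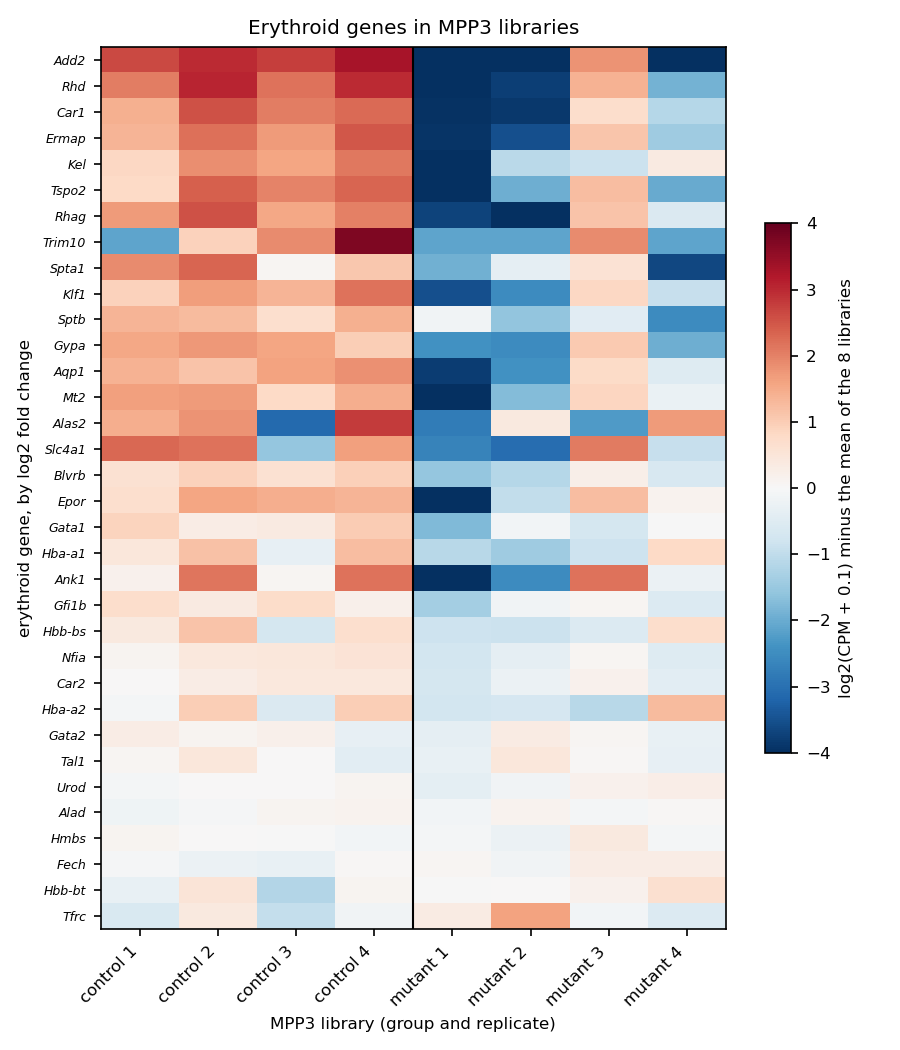
The 34 erythroid genes (rows, ordered by log2 fold change) in the 8 MPP3 libraries (columns), coloured by log2(CPM + 0.1) minus the gene's mean over the libraries, with the colour scale ending at 4 in either direction. In 12 of the upper 14 rows mutant replicate 3 is above the row's mean and the other mutants below it, Kel and Sptb being the exceptions, and the lowest rows, among them haem synthesis genes, are pale in all libraries.

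Megakaryocyte and platelet genes had values on both sides. Of 29 tested, 21 had a negative log2 fold change, 3 were on the higher side and 5 on the lower side of an unadjusted p under 0.05 (6.31% and 7.52% of all genes), and 4 were lower without overlap (3.48% of all genes), with a median of -0.22. How this list differs from the erythroid list was not tested. With the block Cd9 was higher (75.1, 83.3, 94.5 and 79.5 CPM in controls, 101, 115, 127 and 109 CPM in mutants, edgeR adjusted p = 0.0264). Mmrn1, the platelet protein multimerin, stood at 30.2, 39, 66 and 34.3 CPM in controls and 22.7, 19.1, 29.6 and 23.1 CPM in mutants and passed only without mutant replicate 3 (edgeR adjusted p = 0.0480).

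Genes of lymphoid priming were mostly lower in value in the mutant as well. Of 26 tested, 24 had a negative log2 fold change, 14 had an unadjusted p under 0.05 on the lower side and none on the higher side (7.52% and 6.31% of all genes), and 3 passed with the block (0.402% of all genes on that side): Igkc, Jchain and Mn1, all lower. The median was -0.82 and lay below 0 in each batch (-0.79, -1.59, -0.46 and -1.20). Without mutant replicate 3 it was -1.30 with 3 calls, all lower (0.696% of all genes on that side). Igkc and Jchain, the immunoglobulin kappa constant region and joining chain of B and plasma cells, varied widely among controls: Igkc had 0.550, 291, 77.4 and 25.1 CPM there and 0, 0.586, 2.17 and 0.945 CPM in mutants, and Jchain 0, 106, 37.2 and 10.7 CPM in controls and 0, 0.363, 0.384 and 0 CPM in mutants. Control replicate 1 held next to none of either, as the mutants did. Mn1, a transcriptional coregulator, had 51.4, 45.4, 66.8 and 61.5 CPM in controls and 24.1, 20.8, 45.8 and 24 CPM in mutants (edgeR adjusted p = 0.0482 with the block). Mutant replicate 3 stood apart from the other mutants and overlapped the lowest control, and without it the adjusted p was 0.00555 with no block (edgeR). Vpreb1, the surrogate light chain of early B cells, had 5.47, 18.6, 9.5 and 24.8 CPM in controls and 0.776, 0.586, 5.42 and 2.15 CPM in mutants, and Cd79b, of the B cell receptor, 87.8, 97.5, 89.5 and 107 CPM in controls and 63.8, 66.9, 82.4 and 76.7 CPM in mutants. Neither passed in either fit with all libraries.

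Markers of B and plasma cells were lower in value too. This list shares at least Jchain with that of lymphoid priming and is not independent of it. All 11 markers tested had a negative log2 fold change and 9 an unadjusted p under 0.05 (7.52% of all genes on that side), with a median of -2.24. Their sum ran from 178 to 827 CPM in controls and from 99.4 to 186 CPM in mutants, so the ranges overlap through control replicate 1. The mature B cell genes Ms4a1 (CD20) and Pax5 reached no more than 1.32 CPM in any library. Of the 8 tested T and NK cell markers 7 had a negative value, and their sum ran from 63.9 to 92.6 CPM and from 44.2 to 55.0 CPM, with Trac, the T cell receptor alpha constant region, at 0 in all 8 libraries. Cd4 had 9.06, 3.54, 7.69 and 8.78 CPM in controls and 1.12, 0.279, 0.665 and 0.0255 CPM in mutants and did not pass (edgeR adjusted p = 0.0825). The summed markers of dendritic cells and macrophages ran from 198 to 265 CPM in controls and from 160.0 to 228 CPM in mutants. The part of other cell types in the lymphoid and erythroid results was not tested.

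**Figure D3:**
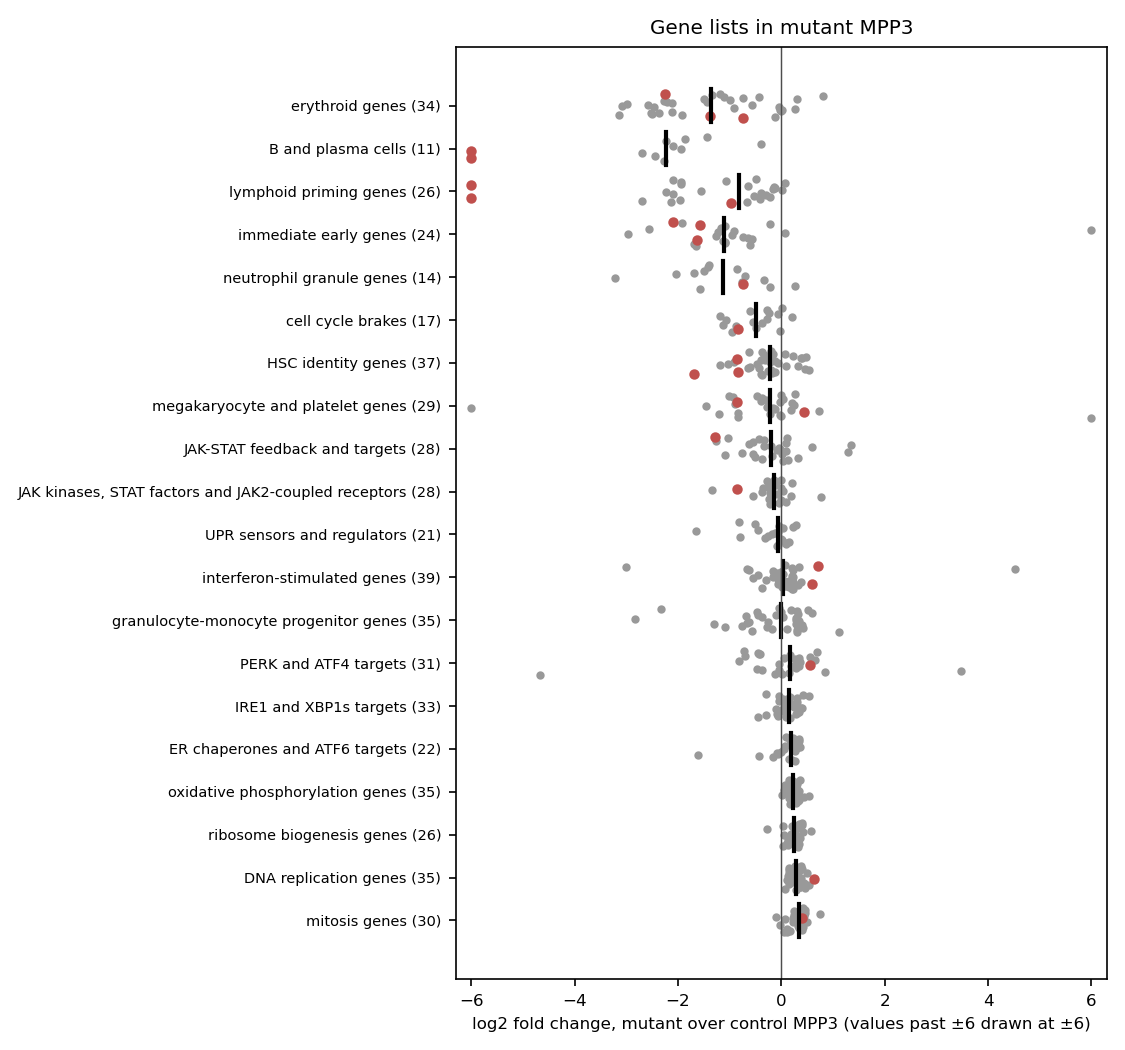
Log2 fold change (mutant over control MPP3, x axis) of each tested member of 20 gene lists (rows, number tested in brackets), with the list median as a black bar and members that passed with the batch as a block in red. Medians run from -2.24 for B and plasma cell markers to 0.33 for mitosis genes, and values past 6 in either direction are drawn at the edge.

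Genes that copy DNA were slightly higher in value in the mutant, all in the same direction. Each of the 35 tested DNA replication genes had a positive log2 fold change, 16 had an unadjusted p under 0.05 and 12 did not overlap between groups, where 6.31% and 3.65% of all genes did. Pola1, the catalytic subunit of DNA polymerase alpha, passed with the block (edgeR adjusted p = 0.0471), at 77.5, 69.2, 70.5 and 62.6 CPM in controls and 128, 96.3, 104 and 108 CPM in mutants. Tk1, the thymidine kinase of S phase, stood at 133, 143, 127 and 121 CPM in controls and 196, 194, 146 and 222 CPM in mutants. Mcm2, of the replicative helicase, and Rfc4, of the clamp loader, had log2 fold changes of 0.37 ± 0.11 and 0.38 ± 0.11. In none of these genes but Pola1 did a value pass with all libraries. Without mutant replicate 3 the list had 3 calls, all higher (0.744% of all genes on that side). Batch medians were 0.42, 0.21, 0.05 and 0.51, over a list median of 0.29.

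Mitosis genes had a median of 0.33, with 28 of 30 positive and 12 at an unadjusted p under 0.05 on the higher side (6.31% of all genes). The batch medians were 0.56, 0.15, -0.03 and 0.56. Without mutant replicate 3 the median was 0.40 with 1 call, on the higher side (0.744% of all genes there). Cdc20, the activator of the anaphase-promoting complex, passed with the block (edgeR adjusted p = 0.0328), at 94.8, 77.6, 131 and 99.6 CPM in controls and 127, 114, 155 and 138 CPM in mutants. Mutant replicates 1 and 2 lie below control replicate 3, while each mutant exceeds the control of its own batch. The kinase gene Cdk1, its cyclin gene Ccnb1, the spindle checkpoint gene Mad2l1 and the kinesin gene Kif20a had log2 fold changes of 0.42 ± 0.12, 0.46 ± 0.14, 0.43 ± 0.10 and 0.49 ± 0.14 and did not pass. Cell cycle brakes lay on the other side: 15 of 17 had a negative value and 6 an unadjusted p under 0.05 on the lower side (7.52% of all genes), with a median of -0.49. Txnip, an arrestin-like inhibitor of glucose uptake and growth, passed with the block (edgeR adjusted p = 0.0208), at 371, 551, 524 and 412 CPM in controls and 155, 251, 375 and 255 CPM in mutants. Foxo3, a transcription factor of quiescence, stood at 162, 134, 186 and 212 CPM in controls and 102, 108, 152 and 115 CPM in mutants. The retinoblastoma gene Rb1 and the damage-induced Gadd45a had -1.19 ± 0.34 and -0.95 ± 0.28, and neither passed.

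Ribosome and energy genes were slightly higher in value in the mutant. Of 26 ribosome biogenesis genes 25 were positive (median 0.25, 9 at an unadjusted p under 0.05 on the higher side, where 6.31% of all genes were), and of 35 nuclear genes of oxidative phosphorylation all 35 were (median 0.23, 17 at an unadjusted p under 0.05). No member of either list passed in either fit with all libraries. Npm1, the nucleolar chaperone nucleophosmin, stood at 1774, 1933, 1578 and 1491 CPM in controls and 2506, 2082, 1788 and 2171 CPM in mutants, and Fbl, the fibrillarin of rRNA methylation, and Bop1, of large subunit assembly, had 0.40 ± 0.11 and 0.43 ± 0.12. Sdhb, of respiratory complex II, stood at 279, 242, 264 and 256 CPM in controls and 356, 326, 305 and 334 CPM in mutants, and Uqcrq of complex III and Ndufa1 of complex I had 0.54 ± 0.14 and 0.37 ± 0.10. In Npm1 and Uqcrq mutant replicate 3 was the lowest mutant. Without that library 2 ribosome biogenesis and 6 oxidative phosphorylation genes passed, all higher (0.744% of all genes on that side).

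**Figure D4:**
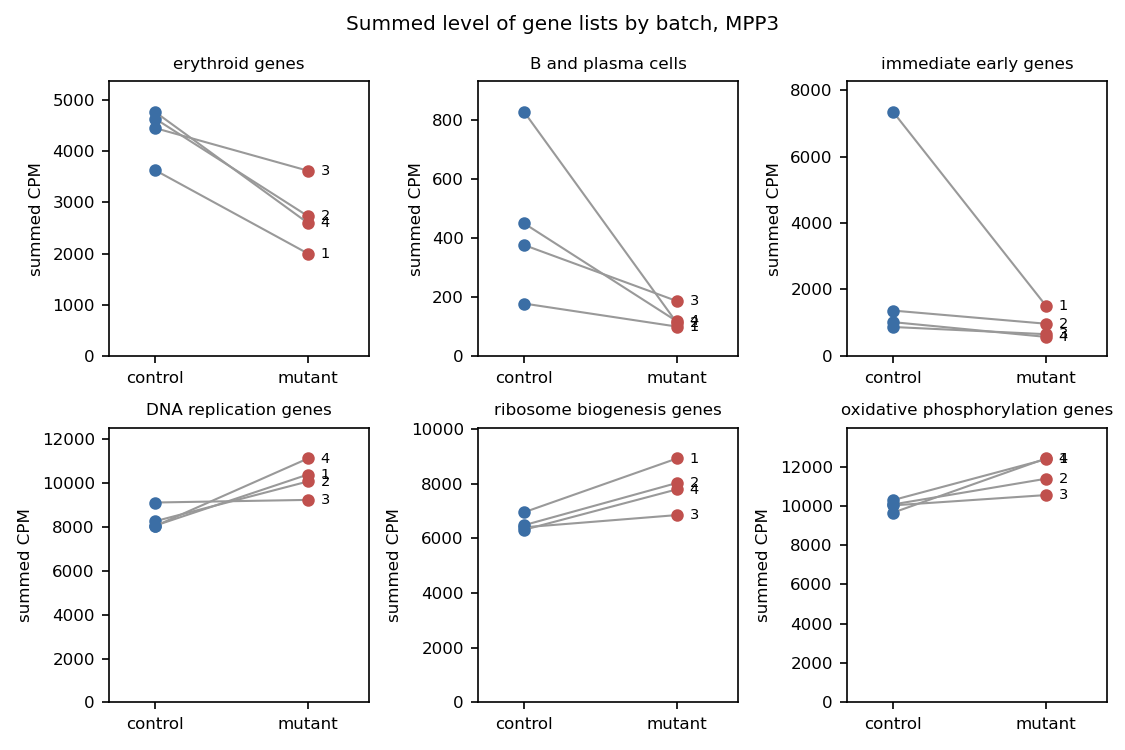
Summed CPM (y axis, from 0) of 6 gene lists in control (blue) and mutant (red) MPP3, with a grey line joining the libraries of each batch and the batch number beside the mutant point. The erythroid, B and plasma cell and immediate early sums are lower in the mutant of every batch and the other 3 sums are higher, and batch 3 has the flattest line for DNA replication, ribosome biogenesis and oxidative phosphorylation.

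The unfolded protein response, named in the title of the series, was followed through its sensors and its targets. The sensors and regulators had a median of -0.07, beside -0.02 over all genes, with 2 of 21 at an unadjusted p under 0.05, both lower, where 7.52% of all genes were. These were Ern1, which encodes the sensor IRE1 (35.5, 25.1, 18.9 and 24.2 CPM in controls, 18, 15, 11.5 and 14.2 CPM in mutants), and Xbp1, the factor whose mRNA IRE1 splices (32.9, 29.5, 20.1 and 19.9 CPM in controls and 22.7, 17.3, 18.7 and 13.3 CPM in mutants). Every mutant was below every control for Ern1 but not for Xbp1, and neither passed (edgeR adjusted p = 0.279 and 0.289). Gene counts do not tell spliced from unspliced Xbp1. Atf4, the effector of the PERK branch, and Hspa5, the chaperone BiP, had 0.04 ± 0.21 and 0.09 ± 0.25, and Ddit3 and Dnajb9 had -0.45 ± 0.27 and -0.30 ± 0.27.

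Among targets the small shifts were mostly upward and few passed any test. Of 33 IRE1 and XBP1s targets 24 were positive (median 0.15, with 7 higher and 1 lower at an unadjusted p under 0.05, where 6.31% and 7.52% of all genes were), and of 22 endoplasmic reticulum chaperones and ATF6 targets 16 were (median 0.19, 6 higher and 1 lower). The lists share Pdia6, Hyou1, Dnajc3, Herpud1 and Sel1l and are not independent, and Pdia6 is counted as higher in both. No member of either list passed in either fit or without mutant replicate 3. Dnajc10, a disulfide reductase of the reticulum, stood at 95.3, 111, 111 and 113 CPM in controls and 147, 118, 132 and 144 CPM in mutants. Spcs2 and Spcs3, of the signal peptidase, had 0.25 ± 0.09 and 0.40 ± 0.14, and the disulfide isomerase genes Pdia3, Pdia4 and Pdia6 had 0.33 ± 0.14, 0.24 ± 0.09 and 0.30 ± 0.11. On the lower side at that unadjusted p were Derl1, of the pathway that exports misfolded protein, with -0.45 ± 0.15, and Crebrf. Derl1 is from the IRE1 and XBP1s list, and Crebrf, with -0.43 ± 0.20, from that of chaperones and ATF6 targets. The lectin chaperone gene Calr had 0.34 ± 0.15.

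The PERK and ATF4 targets held 1 call with the block. Aars, the alanyl-tRNA synthetase, stood at 147, 129, 119 and 118 CPM in controls and 193, 185, 181 and 194 CPM in mutants, a log2 fold change of 0.55 ± 0.11 with the block (edgeR adjusted p = 0.0471, 0.0614 without it). The serine and folate enzymes of the list were higher in value: Mthfd2 had 40.7, 49.5, 53.8 and 44.6 CPM in controls and 87.3, 76.3, 50.1 and 80.5 CPM in mutants, Psat1 135, 123, 170.2 and 151 CPM in controls and 258, 208, 191 and 196 CPM in mutants, and Phgdh a log2 fold change of 0.35 ± 0.09. The stress pseudokinase gene Trib3 had 11.2, 9.76, 11.1 and 10.4 CPM in controls and 4.05, 4.52, 12.5 and 4.57 CPM in mutants, lower in 3 mutants and not in replicate 3. Without that replicate 5 targets passed as higher (0.744% of all genes), Aars, Mthfd2 and Phgdh among them, and Trib3 as lower (edgeR adjusted p = 0.00629). Over the 31 tested the median was 0.16.

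Interferon genes had a median near that of all genes and a slightly higher sum in the mutant. The 39 interferon-stimulated genes had a median of 0.03, with 4 higher and 2 lower at an unadjusted p under 0.05 (6.31% and 7.52% of all genes). Of the 39, 23 had a positive log2 fold change and 16 a negative one, and the batch medians were -0.17, 0.15, 0.20 and 0.10. Their summed level was 3075, 2857, 2942 and 3178 CPM in controls and 3280.2, 3205, 3322 and 3461 CPM in mutants, higher in the mutant of every batch and without overlap. Ifitm1, Ifitm2 and Ifitm3 held the most counts of the list and weigh most in this sum. Ifit2, which binds viral RNA, and Ifi47, an immunity-related GTPase, passed with the block as higher (edgeR adjusted p = 0.0471 and 0.0471), at 17.6, 18.8, 14.8 and 21.8 CPM in controls and 24.6, 30.3, 24.7 and 40.3 CPM in mutants for Ifit2 and 128, 125, 165 and 178 CPM in controls and 223, 235, 196 and 245 CPM in mutants for Ifi47. Isg20, an RNA exonuclease, was lower in value, at 36.8, 37.5, 29.5 and 39.1 CPM in controls and 16.4, 23.8, 26.1 and 23.6 CPM in mutants, and passed only without mutant replicate 3 (edgeR adjusted p = 0.0346). Mx1 stayed near the floor of detection, at 0, 0.0300, 0.0265 and 0.0245 CPM in controls and 1.01, 0.670, 0.384 and 0.102 CPM in mutants. Its groups did not overlap, and it passed in neither fit (edgeR adjusted p = 0.155 without the block and 0.131 with it). Of 19 interferon-induced GTPases Gm4951 rose and Gbp4 fell (0.0141% and 0.0494% of all genes), and the list median was -0.02. At an unadjusted p under 0.05, 3 were higher and 4 lower (6.31% and 7.52% of all genes). The higher ones were Gm4951, Ifi47 and Gvin1, and the lower ones Gbp4, Gbp5, Gbp9 and Gbp10. Gbp10 had counts in control replicate 1 alone. Without overlap 4 were higher and 2 lower (3.65% and 3.48% of all genes). Gvin1, a giant GTPase, had 0.66 ± 0.23, and Psmb8, of the immunoproteasome, 0.25 ± 0.12.

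Genes of granulocyte-monocyte progenitors had no common direction, with 17 of 35 positive and 18 negative (median -0.01). Cebpa, the factor that starts granulocyte-monocyte fate, stood at 14.2, 7.63, 5.94 and 7.48 CPM in controls and 18, 9.35, 6.88 and 9.22 CPM in mutants, and Irf8, of the monocyte branch, at 29.6, 56, 20.0 and 31.5 CPM in controls and 36.2, 23.7, 18.9 and 21.8 CPM in mutants. Elane and Ly6c2 were highest in control replicate 2, with 75.3, 928, 160.4 and 221 CPM in controls and 71.4, 86.2, 72.9 and 46.6 CPM in mutants for Elane, and 0.839, 92, 10.8 and 12.3 CPM in controls and 2.47, 6.06, 4.99 and 2.76 CPM in mutants for Ly6c2. Lyz2 had -0.28 ± 0.13, and Fcgr2b, of the family used in the sort, 0.30 ± 0.45. Of 14 neutrophil granule genes tested, 13 were negative and 1 positive. Of these, 1 had an unadjusted p under 0.05, on the lower side, where 7.52% of all genes did. The list median was -1.13 with mutant replicate 3 and -3.65 without it. Between batches the list went in opposite directions, with medians of -4.19, -4.11, 3.59 and -3.46. S100a8 shows it, with 15.5, 45.3, 1.35 and 16.4 CPM in controls and 0.0575, 1.7, 22.1 and 0.511 CPM in mutants: mutant replicate 3 was the highest mutant and control replicate 3 the lowest control. Padi4, an enzyme that citrullinates histones, was the member that passed with the block (edgeR adjusted p = 0.0482), at 258, 169.9, 142 and 188 CPM in controls and 105, 118, 95.7 and 136 CPM in mutants. The basophil protease gene Mcpt8 had 2.46, 13.2, 6.95 and 7.92 CPM in controls and 29.8, 17.7, 11.2 and 15.8 CPM in mutants, and did not pass. The sum of mast cell, basophil and eosinophil markers ran from 155 to 234 CPM in controls and from 165 to 277 CPM in mutants, and its part in the Mcpt8 values was not tested.

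Genes that mark HSC were lower in part. Of 37 tested 28 were negative (median -0.22), and 8 were lower and 2 higher at an unadjusted p under 0.05 (7.52% and 6.31% of all genes). With the block 3 passed as lower (0.402% of all genes), Trpc6 and Txnip among them, the latter also counted among the brakes. Trpc6, a calcium channel, stood at 40.9, 14, 10.2 and 13 CPM in controls and 9.37, 2.04, 3.86 and 9.02 CPM in mutants (edgeR adjusted p = 0.0482 with the block). Control replicate 1 was its highest library, and without it the adjusted p with the block was 0.148 (edgeR). Without mutant replicate 3, and with no block, 3 genes of the list passed, all lower (0.696% of all genes on that side). Mllt3, a regulator of stem cell maintenance, stood at 33.7, 25.1, 25.4 and 33.8 CPM in controls and 21.6, 17.4, 19 and 18.8 CPM in mutants without overlap (edgeR adjusted p = 0.0640), and Gfi1b, a repressor shared by HSC and erythroid cells, at 133, 104, 134 and 94.6 CPM in controls and 31.5, 73.5, 85.4 and 55.9 CPM in mutants. Ly6a, which encodes Sca-1, had 0.46 ± 0.13, and the endothelial and stem cell sialomucin gene Emcn -0.96 ± 0.28. Neither passed.

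Immediate early genes were dominated by 1 library. Fos had 2294, 278, 94.1 and 162 CPM in controls and 454, 131, 35.6 and 43.5 CPM in mutants, Jun 158, 60.9, 16.1 and 23 CPM in controls and 38.9, 26.8, 11.8 and 9.89 CPM in mutants, and Zfp36, which destabilises cytokine mRNA, 1398, 258, 186 and 207 CPM in controls and 283, 174, 131 and 68.7 CPM in mutants. The groups overlap for all 3, yet each mutant library was below the control of its own batch, and with the block all 3 passed as lower (edgeR adjusted p = 0.0208, 0.0258 and 0.0471; 0.564, 0.460 and 0.422 without). With the block and without control replicate 1 none of the 3 passed (edgeR adjusted p = 0.0556, 0.0678 and 0.123), and the log2 fold changes of Fos, Jun and Zfp36 were -1.51, -1.05 and -0.99. The median of the 24 genes tested was -1.11, and -0.23 without control replicate 1. Klf6 and Ier3 had 409.5, 63.3, 57.1 and 64.8 and 185, 46.2, 37 and 26.8 CPM in controls, with the same library highest. Among 25 NF-kB targets Tnfaip2 passed with the block (edgeR adjusted p = 0.0471), at 16.7, 14.3, 14.6 and 13 CPM in controls and 6.04, 10.3, 6.42 and 4.8 CPM in mutants, where control replicate 1 did not stand apart, and the chemokine gene Ccl4 had 76.6, 8.05, 7.56 and 11.1 CPM in controls. The part of cell handling in these values was not tested.

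The small lists drawn around called genes, chosen with those calls known, held no other call in either fit with all libraries. Of 32 cathepsin and lysosome genes 5 were lower, Ctse among them, and 1 higher at an unadjusted p under 0.05 (7.52% and 6.31% of all genes). Without overlap 4 were lower (3.48% of all genes), and the list median was -0.04. Ctsf and the sialidase gene Neu1 had -0.90 ± 0.26 and -0.67 ± 0.19. Among class I myosins and their linkers Myo1e had 1.09 ± 0.37 and the actin bundler gene Lcp1 0.25 ± 0.10, in the direction opposite to Myo1d, and neither passed. The 15 tested genes of the APP family and its secretases and the 10 acyl-CoA synthetases had medians of -0.02 and -0.01, with Aplp2 and Acsl6 as the only calls in either fit. Of the remaining lists, antigen presentation had a median of 0.03 over 21 genes, cholesterol synthesis 0.10 over 23, the sorting markers 0.26 over 13 and stroma and endothelium -0.96 over 9, and none held a call in either fit.

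The mutant effect in MPP3 was set beside that in HSC by testing the difference itself. In HSC the same fit called 1035 genes. The difference passed for 6 of 14179 genes (0.0423%): Gbp4, Spats2, Plac8, Alox5, Tyms and Ifitm1. Gbp4 was still present in mutant HSC, at 8.58, 5.11, 3.25 and 7.67 CPM, with 22.4, 13.7, 14.5 and 11.2 CPM in control HSC. Spats2 had 2.11, 2.18, 2.99 and 1.52 CPM in control HSC and 1.26, 0.337, 0.453 and 0.852 CPM in mutant HSC, the reverse of its order in MPP3. The other 4 were genes that the mutant changed in HSC and for which no change passed in MPP3. Ifitm1, an antiviral membrane protein, fell in HSC and had a log2 fold change of 0.32 ± 0.15 in MPP3, at 365, 312, 295 and 354 CPM in controls and 536, 378, 327 and 416 CPM in mutants. Plac8 stood at 589, 614, 502 and 514 CPM in controls and 709.7, 714, 598 and 685 CPM in mutants in MPP3, Alox5, the 5-lipoxygenase, at 5.64, 5.88, 6.69 and 6.79 CPM in controls and 5.2, 6.5, 5.63 and 3.42 CPM in mutants, and Tyms, the thymidylate synthase, at 173, 202, 206 and 176 CPM in controls and 220.1, 208, 192 and 221 CPM in mutants. Their log2 fold changes in MPP3 minus those in HSC were -1.78 ± 0.30, -3.36 ± 0.54 and -0.90 ± 0.14. With the block the difference passed for 1 gene. Same-numbered HSC and MPP3 libraries of one genotype deviated together (r = 0.0821 to 0.165 across genes, 8 of 8 closest to their own number), and the fit without the block takes them as independent.

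Of the 9 genes called in MPP3, 8 had the same sign in HSC and 2 were called there, Aplp2 among them. Aplp2 stood at 344, 398, 361 and 367 CPM in control HSC and 141, 143, 197 and 187 CPM in mutant HSC, and its difference of effects was 0.40 ± 0.18 (edgeR adjusted p = 0.705). Of the 82 genes that passed with the block, 75 had the same sign in HSC and 32 were called there, where 1035 of all 14179 genes were. The share of all genes with the same sign in both cell types was not counted. DNA replication genes had a median of 0.29 in MPP3 and 0.82 in HSC, and mitosis genes 0.33 and 0.85. At an unadjusted p under 0.05 the difference held for 26 of 35 and 21 of 30 of them, and after adjustment for Tyms alone. Erythroid genes had -1.36 in MPP3 and -0.35 in HSC, and the difference had an unadjusted p under 0.05 for 8 of 34 and passed for none. How many of all genes had a difference at that unadjusted p was not counted, so the counts of these lists have no share to stand beside. Cish had -1.28 ± 0.29 in MPP3 and -1.48 ± 0.29 in HSC, a difference of 0.20 ± 0.40.

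**Figure D5:**
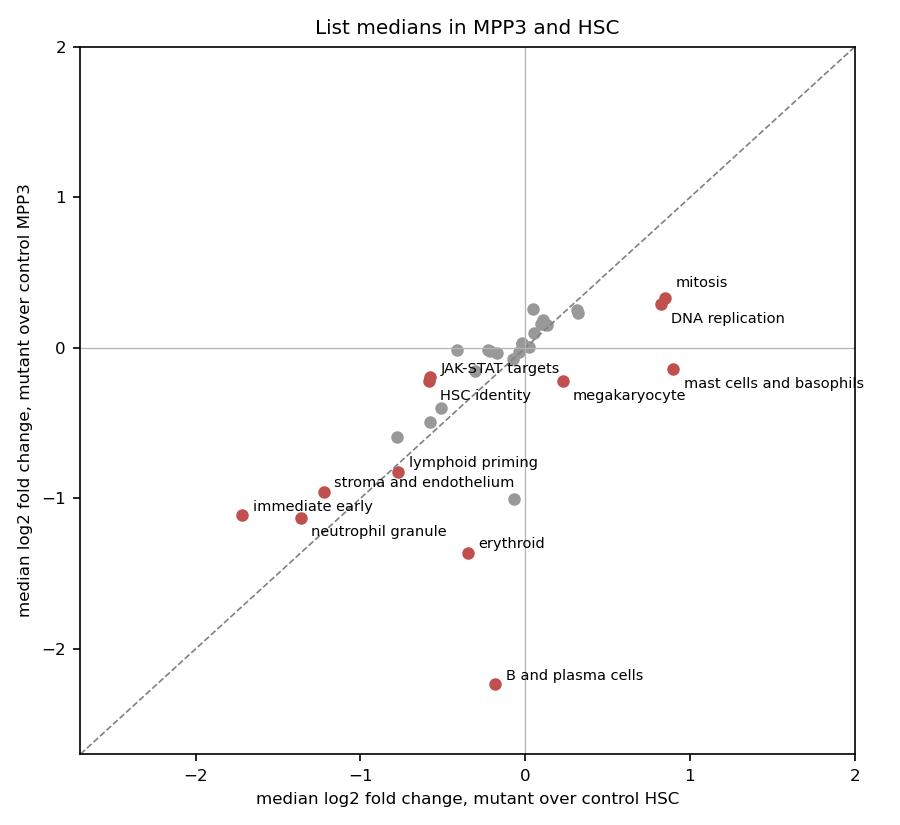
Median log2 fold change, mutant over control, of each of the 33 gene lists in HSC (x axis) and in MPP3 (y axis), over the members with a count in HSC for the x axis, with the dashed line marking equal values and the lists named in red. DNA replication (0.82 and 0.29) and mitosis (0.85 and 0.33) lie below the line on the positive side, and B and plasma cell markers, of which 10 of 11 had a count in HSC, are at -0.18 and -2.24, with erythroid genes at -0.35 and -1.36.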

How the data were processed

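RNA from sorted cells was read as pairs of 150 bases after cDNA amplification, with 12 to 15 PCR cycles at the library step, per the labels' protocols. The submitters' processing notes name cutadapt 4.0, FastQC, HISAT2 and Salmon with GRCm38 (mm10). Settings and strand are not stated in what was used here. The authors' deposited gene tables hold estimated counts from Salmon, not normalized, which were rounded and tested, and per the file headers also TPM and effective lengths. The deposited TPM were not tested, and effective lengths entered 1 alternative. Of 31716 rows per table, 29806 gene rows were used, with symbols from GENCODE M21, and single-transcript rows (at most 0.796% of counts) were left out.

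All 16 libraries entered 1 edgeR 4.0.16 model (R 4.3.3; glmQLFit robust, glmQLFTest) with a coefficient per group, TMM, filterByExpr and Benjamini-Hochberg adjustment over 14179 genes. The log2 fold changes are given ± SE. The script was tested on simulated counts for the MPP3 comparison over 14179 genes, where 8% of genes changed 1.5-fold, 50% of those changed 2-fold, 54% of those changed 3-fold and 68% of those changed 4-fold were called.

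The labels make the replicate number the batch, so it pairs mutant with control. Within MPP3 the deviations from the group means of same-numbered libraries correlated at r = -0.00559 to 0.0982, and 2 of 4 matched best with their own number, while HSC and MPP3 libraries of one genotype and number correlated at r = 0.0821 to 0.165, 8 of 8 best with their own number.

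Named genes were all called genes (1 of the 9 is not reported here), up to 10 per direction without overlap at an unadjusted p under 0.01 and at least 5 CPM on average, up to 4 members of each of 33 lists by smallest p, up to 10 per direction called with the block, and 22 fixed genes of signalling, the unfolded protein response and sorting. Rhd, Ermap, Add2, Hba-a1, Hbb-bs, Trib3, Fkbp14, Jun, Zfp36 and the genes whose effect differed between cell types were named after their values were seen. The members, lists and rule were chosen with earlier results of these data known. Of 755 genes on the lists 748 matched a row. Alternatives were the replicate block, the MPP3 libraries alone, RLE size factors, DESeq2 1.42.0, limma-voom (limma 3.58.1), no filter on low counts, length offsets, abundant transcripts left out, and each of 16 libraries left out. The replicate block without control MPP3 replicate 1 or mutant MPP3 replicate 3 was added after seeing the data.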

Additional observations from a re-analysis of the deposited data

Results flagged for a closer look

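Among 274 groups of 4 libraries checked, 31 held a library far from the other 3 by Dixon's ratio at its 95% limit. The groups are those of genes named here, some of them after their values were seen, Rhd, Ermap, Add2 and Trib3 among them. The share of about 1 in 20 groups that chance gives therefore cannot be set against this count. Mutant MPP3 replicate 3 was the high library for 13 of the 31. Among these were Lyz2 (255 CPM), S100a8 (22.1 CPM), Csf2ra (29.9 CPM) and Fcgr3 (6.93 CPM), of the myeloid and granule lists. Also among them were the erythroid genes Rhd (21.7 CPM), Ermap (34 CPM) and Add2 (7.75 CPM), and Mn1 (45.8 CPM), of the lymphoid priming list. The others were Flt3 (190.3 CPM), Ctse (54 CPM), Ces2g (34.3 CPM), Trib3 (12.5 CPM) and Myo1e (7.24 CPM).

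Control MPP3 replicate 1 was the high library for Fos (2294 CPM), Zfp36 (1398 CPM), Klf6 (409.5 CPM), Ier3 (185 CPM), Socs3 (156 CPM), Ccl4 (76.6 CPM), Trpc6 (40.9 CPM) and Dnajb9 (24.4 CPM), and the low one for Dnajc10 (95.3 CPM). The remaining ones were Mcm2 (668 CPM) and Spcs2 (393 CPM), high in control replicate 3, Ly6c2, high in control replicate 2 (92 CPM), and Ccnd1, high in control replicate 4 (31.5 CPM). In mutants Spcs2 (366 CPM) and Hmga1 (391 CPM) were low in replicate 2, Neu1 (18.2 CPM) was high in replicate 1, and the globin genes Hba-a1 (59.3 CPM) and Hbb-bs (52.9 CPM) were high in replicate 4.

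For 6 genes the mutant effect differed between MPP3 and HSC by the test of the difference. The log2 fold change in MPP3 minus that in HSC was -7.84 for Gbp4, 9.54 for Spats2, -3.36 for Alox5, -1.78 for Plac8, -0.90 for Tyms and 1.48 for Ifitm1. Gbp4 in mutant and Spats2 in control MPP3 had no counts, so the sizes of their fitted values depend on the prior count and are not bounds.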

How the results depend on the processing

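With the replicate block, which pairs libraries by batch, the 9 genes changed in MPP3 became 82 and the 6 genes whose effect differed from HSC became 1. With the replicate block, in fits added after seeing the data, they became 4 and 0 without control MPP3 replicate 1 and 253 and 6 without mutant MPP3 replicate 3. The 9 became 0 in the MPP3 libraries alone, with (1685 at an unadjusted p under 0.05) or without (1543) the replicate block, 1 with no filter on low counts, 16 with length offsets and 388 by DESeq2, which called 77 differences. Leaving out 1 library gave 1 to 209 changed genes, the most without mutant MPP3 replicate 3, and 1 to 5 differences. The count at an unadjusted p under 0.05 stayed within 1.5 times of 1960 in all 27 alternatives. Fold changes near 0 changed sign: Jak2 was 0.0168 with the replicate block and -0.17 to 0.11 with 1 library left out, and Socs2 was -0.0806 with length offsets and -0.16 to 0.40 with 1 library left out. By that last setting Socs3 ran from -1.68 to 0.55, Hspa5 from -0.0827 to 0.23, Atf4 from -0.0548 to 0.21, Mpo from -0.17 to 0.24 and Cebpa from -0.0630 to 0.65. With the replicate block, Hspa5 (-0.0137) and Cebpa (-0.0287) without control replicate 1 and Socs2 (-0.13) and Mpo (0.21) without mutant replicate 3 also changed sign. Medians changed sign in 9 of 33 lists, none with a size over 0.139. The cause was not tested. At 4 libraries per group most changes of 1.5-fold would be missed.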
